A study of Homo sapiens with 2 samples.

Results

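A set of 10 genes of the T-cell receptor apparatus was followed at single-CpG resolution in the DNA methylomes of 2 acute myeloid leukaemia cell lines. The 10 genes, out of 20162 protein-coding genes in the annotation, are the receptor chains CD3D, CD3E, CD3G and CD247, the kinases LCK and ZAP70, the adaptor LAT, and the surface molecules CD2, CD5 and CD7. OCI-AML3 is the DNMT3A mutant line and OCI-AML5 the DNMT3A wild-type line. DNMT3A is an enzyme that places new methyl groups on CpG dinucleotides. The paper states that both lines were cultured as their supplier specifies, and no treatment is given for either. Each line was sequenced as 1 whole-genome bisulfite library, in which unmethylated cytosines are read as thymine. The mutation, the donor and every other property of a line therefore cannot be told apart, and no difference has a replicate check. The genes had been chosen by values of this same contrast, so each difference between the lines at these genes is given as a description. Fisher's exact test is used only to count single CpG dinucleotides whose calls differed between the 2 libraries, and supports no difference between mutant and wild-type cells.

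The T-cell receptor recognises antigen, and its CD3 chains (delta, epsilon, gamma and the zeta chain encoded by CD247) carry the signal into the cell. LCK phosphorylates these chains, ZAP70 docks on them and phosphorylates LAT, and LAT gathers the enzymes that raise calcium and switch on RAS. The genes are characteristic of T cells, some of them also of natural killer cells, and most are not used by myeloid cells. Methylated CpG dinucleotides around a start site usually accompany a silent gene. RNA was not analysed here.

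A promoter was the window within 2000 bp of the start site, taken as the 5′ end of the longest-reaching annotated transcript, and a gene body was the rest of the gene. The methylation level of a region was the mean share of methylated calls over its CpG dinucleotides, each counted once. A CpG was used where both lines had over 5 reads on it. Of 4068 CpG dinucleotides at the 10 genes, 3977 passed this filter. Intervals are 95% Wilson intervals of the pooled methylated calls of a region and cover counting error only. The libraries held 902802339 calls for OCI-AML3 and 894828667 for OCI-AML5, the median CpG was covered by 27 and 30 calls, and the mean level over the genome was 67.6% in OCI-AML3 and 75.2% in OCI-AML5. Of 20 myeloid marker promoters 2 were below 20% in both lines, beside 22.7% of all promoters. These 2 were the transcription factor genes SPI1 (11.5% in both lines) and CEBPA (1.82% and 6.01%). The promoter of MPO, the granule peroxidase gene, was at 93.2% and 90.3%. Of other granule genes on the list, LYZ was at 75.5% and 71.2%, CTSG at 2.03% and 84.3%, and AZU1 at 3.77% and 74.5%. ELANE was at 20.1% and 78.4%, and PRTN3 at 44.3% and 84.2%. The list therefore gave no check of the label.

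All 10 promoters were highly methylated in OCI-AML5 and, apart from LAT, were mostly methylated in OCI-AML3. In OCI-AML5 their levels ran from 82.4% at CD3G to 92.7% at CD5, so all 10 lay above 80%, a level reached by 19.0% of protein-coding promoters in that line. In OCI-AML3 the other promoters ran from 67.6% at CD3G to 90.9% at CD5, and LAT stood at 15.0%. It follows from the OCI-AML5 levels that no member promoter was below 20% in both lines, as 22.7% of all promoters were. The windows held from 37 covered CpG dinucleotides (CD3E and CD2) to 217 (CD7).

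All 10 promoters had a lower mean in OCI-AML3, as did 84.7% of all protein-coding promoters. The median difference was -13.2 percentage points (OCI-AML3 minus OCI-AML5), and -12.8 without LAT, beside -4.68 over all promoters and -7.89 over those above 80% in OCI-AML5. One promoter, LAT, was lower by over 20 points. That size was met by 8.61% of all promoters and by 17.1% of those above 80% in OCI-AML5, and an increase over 20 points by 1.79%, with none among the 10 genes. Just short of the threshold were CD247 (-16.6) and CD3E (-16.2).

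**Figure D1:**
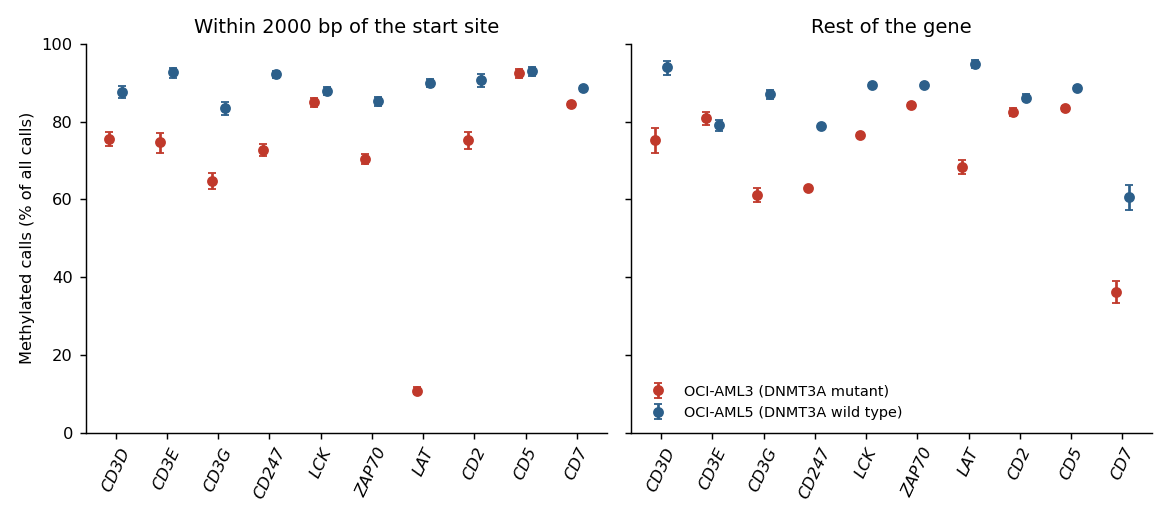
Pooled share of methylated calls (%) in the promoter window (left) and the rest of the gene (right) of each gene in OCI-AML3 and OCI-AML5, 1 library each, with bars for the 95% Wilson interval of counting error. The LAT promoter is the single point near 10%, and the lowest gene body is that of CD7.

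All 10 gene bodies also had a lower mean in OCI-AML3, beside 92.9% of all bodies. Their median difference was -12.4 points against -4.93 over all bodies. The bodies of CD3G (-22.7), CD7 (-22.1) and LAT (-21.2) were lower by over 20 points, which 7.58% of all bodies were. With the start site of the canonical transcript the LAT body was at -19.3 and 2 bodies passed that size. Counted by single CpG, 812 of the 3977 (20.4%) were lower in OCI-AML3, and 18.3% without LAT, beside 14.7% of all. The count used Fisher's exact test with Benjamini-Hochberg adjustment over all nuclear CpG dinucleotides. The CD247 gene itself held 314 of the 812, among its 1349 covered CpG dinucleotides. Its mean depth was 57.6 (OCI-AML3) and 54.0 (OCI-AML5), the deepest of the 10 genes. Members were also more methylated in OCI-AML5, with 82.7% of their CpG dinucleotides above 80% in that line, beside 68.3% of all. The part of depth and of the level in OCI-AML5 in the excess was not tested. In the other direction 76 CpG dinucleotides (1.91%) were higher, beside 3.86% of all. These tests compare the reads of 2 libraries and not mutant with wild-type cells.

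Runs were also counted, each of at least 3 neighbouring CpG dinucleotides, no more than 300 bp apart, whose Wilson intervals separated in the same direction. The 10 genes held 65 runs lower in OCI-AML3 and 5 higher, beside 279687 lower and 50594 higher over the genome. Lower runs were thus the more common kind everywhere, and CD247 held 25 of the 65. A lower run reached the promoter of 8 genes, all but CD2 and CD5, where 60.0% of all promoters had one. The run in the CD3D promoter also lies in that of CD3G and counts for both genes. A higher run reached the promoter of LCK alone, beside 18.6% of all promoters.

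**Figure D2:**
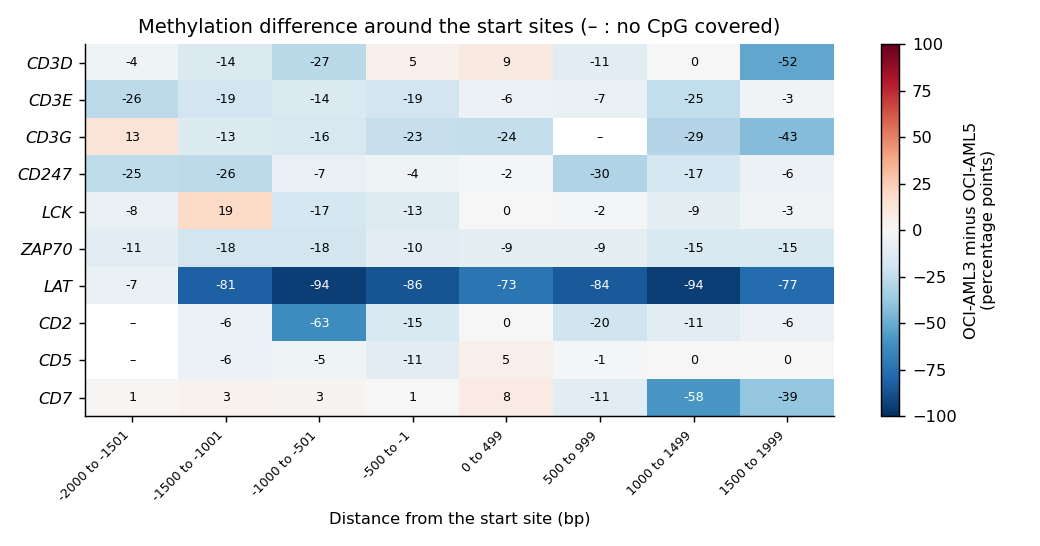
Mean methylation difference (OCI-AML3 minus OCI-AML5, percentage points) in bins of 500 bp by distance from the start site of each gene, with a dash where no CpG was covered. LAT is low in 7 adjoining bins, CD7 in the last 2 bins, and the bins that touch the other start sites lie within 25 points of 0.

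The 4 receptor chain genes had intermediate promoter differences. CD3D, CD3E and CD3G lie together on chromosome 11, and CD3D (chr11:118209790-118213420, minus strand) and CD3G (chr11:118215059-118225876, plus strand) face away from each other with start sites 1639 bp apart. Their windows shared 38 CpG dinucleotides, at 75.5% in OCI-AML3 and 84.1% in OCI-AML5, so the values of these genes are not independent.

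CD3D, the delta chain, was at 74.9% in OCI-AML3 and 86.5% in OCI-AML5 (-11.5 points), yet the start site itself ran the other way. Within 200 bp of it the level was 74.6% in OCI-AML3 (140 of 187 calls, 68.2 to 80.5%) and 54.3% in OCI-AML5 (126 of 228, 48.8 to 61.6%). The CpG 6 bp inside the gene was methylated in 21 of 22 calls in OCI-AML3 and in 14 of 29 in OCI-AML5, and the CpG at +58 in 15 of 16 and 13 of 27. Both passed the adjusted threshold as higher in OCI-AML3. The CpG at -49 was unmethylated in both, with 1 of 22 and 0 of 29 calls methylated. The 250 bases before this start are printed because neighbouring CpG dinucleotides there differed so widely. They cover chr11:118213421-118213670 (GRCh37, minus strand), 5′ to 3′, with each CpG in capitals.
CD3D upstream: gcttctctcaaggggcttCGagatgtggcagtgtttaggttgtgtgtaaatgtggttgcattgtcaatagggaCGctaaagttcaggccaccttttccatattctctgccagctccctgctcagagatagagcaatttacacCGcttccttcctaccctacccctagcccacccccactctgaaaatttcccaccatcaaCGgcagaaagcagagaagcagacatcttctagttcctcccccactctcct
From left to right, the 4 CpG dinucleotides were at 64.0%, 80.8%, 95.8% and 4.55% in OCI-AML3, and at 96.0%, 61.9%, 56.0% and 0% in OCI-AML5. The lower run of the window lay farther out, from -647 to -590 (3 CpG, 38.9% against 90.7%), between CD3D and CD3G.

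CD3E, the epsilon chain (chr11:118175445-118186890, plus strand), was at 75.3% in OCI-AML3 and 91.5% in OCI-AML5 around its start (-16.2). One lower run, of 4 CpG dinucleotides in its second intron, stood at 47.5% against 96.5%. Its far end had the reverse pattern. In the last exon the level was 77.7% in OCI-AML3 (499 of 634 calls, 75.4 to 81.7%) and 41.7% in OCI-AML5 (256 of 657, 35.3 to 42.7%). A higher run of 9 CpG dinucleotides from +10867 to +11196, all in untranslated sequence, was at 79.7% against 28.6%, and another of 3 just before it was at 94.8% against 51.7%. Because of these, the body difference of CD3E was only -1.31, with 13 CpG dinucleotides higher and 9 lower. The pooled share of calls was higher in OCI-AML3, at 80.9% (79.2 to 82.4%) against 79.1% (77.6 to 80.6%), with overlapping intervals.

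CD3G, the gamma chain, had the least methylated promoter of the 4 chains in both lines. It was at 67.6% in OCI-AML3 and 82.4% in OCI-AML5 (-14.8), and its body at 63.9% and 86.6% (-22.7). The CpG dinucleotides nearest to the start at +53 and +62 were methylated in both lines (36 of 39 and 34 of 36 calls in OCI-AML3, 33 of 35 and 38 of 40 in OCI-AML5). The difference was spread over 8 short lower runs of 3 or 4 CpG dinucleotides, and no run was higher. Of the 8, 1 lay upstream and is the run already given for CD3D, and 6 were wholly intronic. The widest gap was in the fifth intron, from +7555 to +7667, where 3 CpG dinucleotides were at 18.8% against 89.6%. The introns of CD3G differed by -24.3 and its exons by -18.5 points.

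CD247, the zeta chain (chr1:167394264-167487877, minus strand), is the longest of the genes, at 93614 bp. The gene itself, without the sequence upstream, held 1349 covered CpG dinucleotides, and 25 of the 65 lower runs were those of CD247. Its promoter window was at 75.8% in OCI-AML3 and 92.4% in OCI-AML5 (-16.6). Within 500 bp of the first start the level was 93.1% and 95.4%. Farther out the window was lower in OCI-AML3 on both sides, from -2000 to -1501 (57.4% against 82.7%), from -1500 to -1001 (66.7% against 93.2%), and in a run of 11 CpG dinucleotides from 840 to 1033 bp inside the gene (44.0% against 94.8%). In the first intron, runs from +21152 to +22038 (13 CpG, 7.20% against 87.0%) and from +26161 to +26886 (12 CpG, 5.61% against 90.1%) were low in OCI-AML3 and high in OCI-AML5.

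The gene also has annotated starts far inside. Around the start at +62953 bp, 76 CpG dinucleotides were at 2.18% in OCI-AML3 and 5.61% in OCI-AML5, so this stretch was unmethylated in both lines. Around the start at +78976 bp both lines were intermediate (21.2% and 34.2% over 55 CpG), and 5 CpG dinucleotides between +79184 and +79206 were higher in OCI-AML3 (56.6% against 25.6%). Read depth within 500 kb of CD247 was 1.46 times the mean of the library in OCI-AML3 and 1.45 times in OCI-AML5, and its part in these levels was not tested. The last part of the gene overlaps POU2F1 on the other strand.

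**Figure D3:**
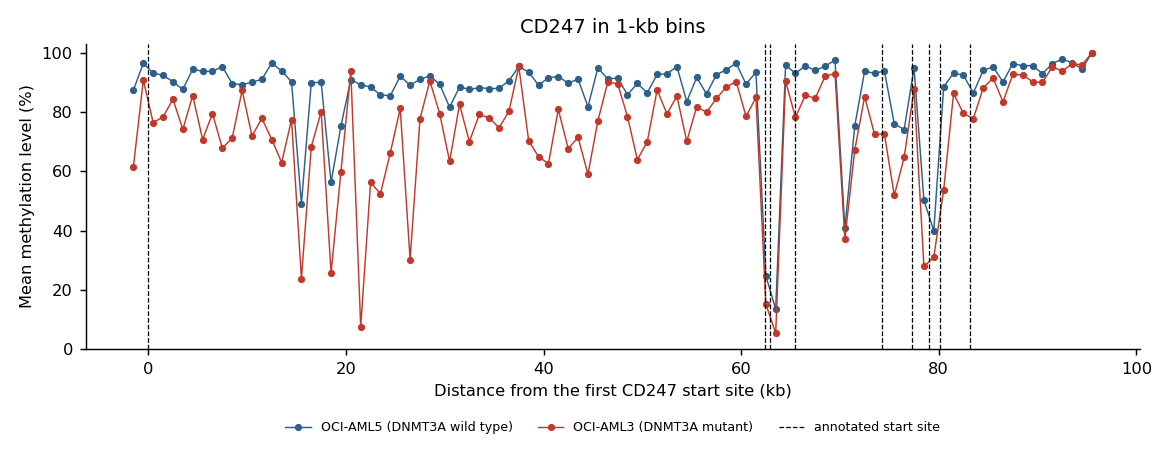
Mean methylation level (%) in bins of 1 kb along CD247 in both lines, by distance from its first start site in kb, with dashed lines at the annotated start sites. OCI-AML3 drops to 7.48% in the bin at 21 kb, where OCI-AML5 is at 89.2%, and both lines drop near 63 kb.

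Of the kinase genes, LCK (chr1:32716845-32751766, plus strand), which encodes the SRC-family kinase that starts the signal, was at 84.3% in OCI-AML3 and 87.7% in OCI-AML5 (-3.48). The promoter window held 1 lower run from -1654 to -1510 (60.2% against 93.1%) and 1 higher run from -1320 to -1028 (89.1% against 53.1%), 3 CpG dinucleotides each, so the mean hid opposite values side by side. Within 500 bp of the first start the level was 90.3% and 94.0%.

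Further starts of LCK lie inside the gene. Around that at +24166 bp, 76 CpG dinucleotides were at 64.6% in OCI-AML3 (3911 calls) and 79.7% in OCI-AML5 (2484 calls), a difference of -15.1. Another start lies 22869 bp inside the gene. Within 500 bp of it 11 CpG dinucleotides were at 65.1% in OCI-AML3 (272 calls) and 87.5% in OCI-AML5 (247 calls), a difference of -22.3. The 250 bases before this inner start, chr1:32739464-32739713 (GRCh37, plus strand), are shown with each CpG in capitals because the distal start gave no such gap.
LCK upstream of the inner start: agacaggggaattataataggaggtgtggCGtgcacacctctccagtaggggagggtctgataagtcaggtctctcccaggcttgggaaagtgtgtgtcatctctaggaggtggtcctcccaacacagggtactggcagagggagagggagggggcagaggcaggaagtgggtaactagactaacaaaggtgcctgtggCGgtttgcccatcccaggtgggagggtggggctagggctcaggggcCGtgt
Its CpG dinucleotides were methylated in 10 of 19, 40 of 46 and 17 of 48 calls in OCI-AML3, and in 17 of 18, 24 of 25 and 8 of 27 in OCI-AML5. The CpG nearest to the inner start was thus low in both lines, at 35.4% and 29.6%. Along the whole LCK body 105 CpG dinucleotides were lower and 6 higher (-12.1 points).

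ZAP70 (chr2:98330039-98356325, plus strand), the kinase that docks on the phosphorylated chains, was at 72.8% in OCI-AML3 and 85.6% in OCI-AML5 (-12.8), with 26 promoter CpG dinucleotides lower and 2 higher. All 8 bins of its promoter window were lower, with differences between -18.1 and -9.03 points. Its body was at 83.6% and 89.4% (-5.80), with exons at 90.1% and 91.8%. Within 200 bp of the start the level was 63.9% in OCI-AML3 (62.9 to 70.7% pooled) and 82.0% in OCI-AML5 (80.4 to 87.7%). Of the 8 CpG dinucleotides there, 2 were below 20% in OCI-AML3. Those nearest to the start were methylated in both lines, for example 71 of 81 and 50 of 51 calls at -19.

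LAT, the membrane adaptor that ZAP70 phosphorylates (chr16:28996147-29002105, plus strand, 5959 bp), was the exception among the 10. Its promoter was at 15.0% in OCI-AML3 and 89.2% in OCI-AML5, a difference of -74.2 points. Pooled over calls the values were 10.8% of 4769 (9.97 to 11.7%) and 90.0% of 3806 (89.0 to 90.9%). Of 19667 promoters 3 had a larger decrease, and LAT was one of the 0.0559% of promoters that were below 20% in OCI-AML3 and above 80% in OCI-AML5. In the window 99 of 116 CpG dinucleotides were lower and 0 higher.

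The 250 bases directly before the LAT start, chr16:28995897-28996146 (GRCh37, plus strand), carry 5 CpG dinucleotides, in capitals.
LAT upstream: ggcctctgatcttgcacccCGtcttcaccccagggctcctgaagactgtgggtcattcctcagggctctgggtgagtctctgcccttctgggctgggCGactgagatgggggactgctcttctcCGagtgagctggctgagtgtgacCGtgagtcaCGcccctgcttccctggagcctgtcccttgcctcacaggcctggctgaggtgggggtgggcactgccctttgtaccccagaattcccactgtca
In OCI-AML3 none of their calls was methylated (0 of 43, 0 of 36, 0 of 36, 0 of 29 and 0 of 29). In OCI-AML5 the same CpG dinucleotides were methylated in 46 of 50, 47 of 52, 39 of 47, 35 of 43 and 34 of 41 calls. Within 200 bp of the start OCI-AML3 had 0 of 223 methylated calls (Wilson upper limit 1.69%, and 1.35% by the limit of 3 calls), and OCI-AML5 had 208 of 267.

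The low stretch was wider than the start. Its lower runs reached from -1442 to +3376, a span of 4819 bp in which 100 of 121 covered CpG dinucleotides were below 20% in OCI-AML3 and 104 were above 80% in OCI-AML5 (means 8.69% and 89.7%). The 1500 bp before it were at 86.8% and 95.2% (-8.39), and the rest of LAT behind it at 92.3% and 94.8% (-2.55), so the difference fell away at both edges. The first run (43 CpG, 2.80% against 92.6%) reached from the end of the neighbouring gene SPNS1, which stops 278 bp before LAT, to the LAT start. The second (43 covered CpG, 2.64% against 85.6%) covered the first exons of LAT, with coding, untranslated and intronic CpG dinucleotides. The last (15 CpG, 23.1% against 96.0%) lay wholly in the eighth intron. OCI-AML5 was itself lowered close to the start, with 5 of 17 calls methylated at +24. Depth within 500 kb of LAT was 0.888 and 0.789 times the mean of each library.

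**Figure D4:**
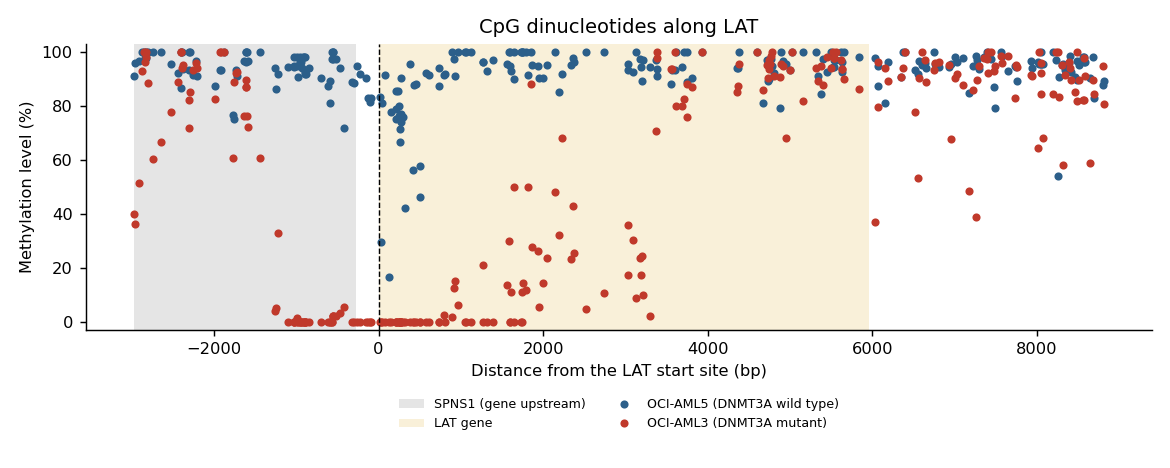
Methylation level (%) of each covered CpG around LAT by distance from its start site (bp), with the LAT gene and the end of SPNS1 shaded. OCI-AML3 lies near 0 from about the end of SPNS1 into LAT, whereas OCI-AML5 lies mostly above 80%, and the lines meet again in the distal part of the gene.

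Of the surface molecules, CD2 (chr1:117297052-117311851, plus strand), an adhesion receptor, was at 76.5% in OCI-AML3 and 90.1% in OCI-AML5 (-13.5). The 250 bases before its start, chr1:117296802-117297051 (GRCh37, plus strand), are given because fully methylated and little methylated CpG dinucleotides lay within 100 bases.
CD2 upstream: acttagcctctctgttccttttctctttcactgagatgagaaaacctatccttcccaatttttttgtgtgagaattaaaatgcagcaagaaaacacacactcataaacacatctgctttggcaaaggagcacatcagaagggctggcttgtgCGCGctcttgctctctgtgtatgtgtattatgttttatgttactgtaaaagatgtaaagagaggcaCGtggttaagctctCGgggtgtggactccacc
Its first pair of CpG dinucleotides (capitals) was methylated in 12 of 12 and 10 of 11 calls in OCI-AML3 and in 11 of 11 and 12 of 12 in OCI-AML5. The pair nearest to the start was methylated in 1 of 16 and 4 of 22 calls in OCI-AML3 and in 8 of 23 and 12 of 29 in OCI-AML5, and neither of these CpG dinucleotides passed the adjusted threshold. One intronic run of CD2 was lower (+8580 to +8798, 14.2% against 87.6%), and a run in the last exon was higher in OCI-AML3 (+14291 to +14500, 93.5% against 46.0%), 3 CpG dinucleotides each.

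CD5 (chr11:60869961-60895324, plus strand), a scavenger-family receptor that dampens receptor signals, was the most alike at its start, at 90.9% in OCI-AML3 and 92.7% in OCI-AML5 (-1.78). The pooled intervals overlapped (91.2 to 93.6% and 91.6 to 94.0%), and 1 promoter CpG was lower and 1 higher. Its single lower run, 5 CpG dinucleotides in the eighth intron from +21460 to +21605, was at 21.8% against 81.6%.

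CD7 (chr17:80272744-80275484, minus strand), an early T-lineage surface molecule, was methylated before its start in both lines and lower in OCI-AML3 inside the gene. Its 2000 bp upstream held 135 CpG dinucleotides at 94.5% in OCI-AML3 and 92.4% in OCI-AML5. The first 1000 bp of the gene were at 78.1% and 80.1%. From 1000 bp inside to the gene end the level was 31.7% in OCI-AML3 (905 of 2687 calls, 31.9 to 35.5% pooled) and 68.1% in OCI-AML5 (1512 of 2179, 67.4 to 71.3%). The promoter value of CD7 (78.8% and 87.2%, -8.40) therefore depended on how much of the gene the window took in, and it was +0.255 with 1000 bp on either side and +2.14 with the upstream part alone.

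All 9 runs at CD7 were lower in OCI-AML3, and the longest (+1016 to +1353, 12 CpG, 8 of them coding) was at 8.82% against 70.6%. The 250 bases at the edge of that run, chr17:80274286-80274535 (GRCh37, minus strand), are shown with each CpG in capitals, because OCI-AML3 was nearly unmethylated there.
CD7 inside: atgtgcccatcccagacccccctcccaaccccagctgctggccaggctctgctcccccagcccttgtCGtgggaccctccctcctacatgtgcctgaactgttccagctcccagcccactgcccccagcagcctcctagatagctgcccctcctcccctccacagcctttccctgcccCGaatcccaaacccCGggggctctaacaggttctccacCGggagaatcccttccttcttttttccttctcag
The 4 CpG dinucleotides had means of 1.81% in OCI-AML3 and 49.4% in OCI-AML5. From left to right, OCI-AML3 had 1 of 56, 2 of 75, 1 of 71 and 1 of 72 methylated calls, and OCI-AML5 9 of 36, 42 of 49, 29 of 53 and 17 of 53. Depth within 500 kb of CD7 was 1.51 times the library mean in OCI-AML3 and 1.15 times in OCI-AML5, and its part in the difference was not tested.

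**Figure D5:**
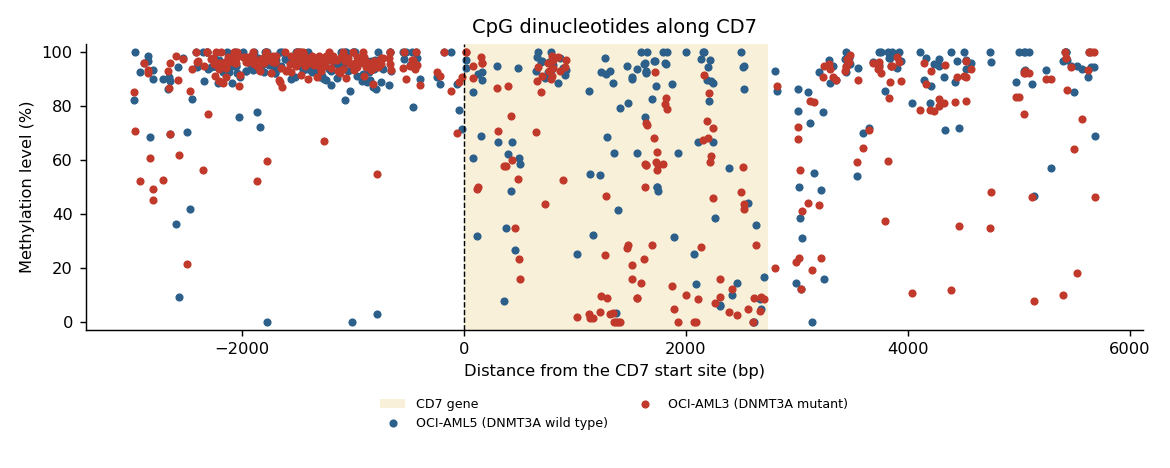
Methylation level (%) of each covered CpG around CD7 by distance from its start site (bp), with the gene shaded. Upstream of the start the lines lie together, mostly above 90%, and from about 1000 bp inside the gene many CpG dinucleotides are near 0 in OCI-AML3.

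The genes shared a CpG-poor start. Their 250 bases upstream held 2 to 7 CpG dinucleotides, with a median of 4.0 beside 14.0 over 20140 promoters, and the median observed-to-expected CpG ratio was 0.213 against 0.664. Within 2000 bp of the start the median was 61.5 CpG dinucleotides against 126.0, with CD7 (217) above 88.7% of promoters. The letters GGGCGG, the core bound by SP1, occurred on either strand of the 250 bases at CD5 and CD7 and in 48.8% of all promoters. The letters TGTGGT, bound by RUNX factors, occurred at CD3D and LCK and in 10.4%.

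Of 44 other genes of the receptor pathway, 36 had a lower promoter mean in OCI-AML3 (84.7% of all promoters did), 9 by over 20 points (8.61% of all) and 0 higher by that size (1.79% of all), with a median of -5.96 against -4.68 over all. Among the 10 co-receptors and co-stimulators 6 were lower by over 20 points (median -22.5), and among the 10 adaptors 2 were. The largest decreases of the 44 were those of RUNX3, a transcription factor of cytotoxic T cells (14.0% against 81.7%), CD96, a receptor of T and natural killer cells (37.9% against 94.5%), SKAP1, an adaptor of integrin activation (49.5% against 92.4%), TRAT1, which stabilises the receptor complex (30.5% against 59.5%), and ICOS, a co-stimulator (64.8% against 91.0%). Higher promoter means in OCI-AML3 included those of GATA3 (+16.3), a T-helper transcription factor, SIT1 (+14.7) and LAX1 (+11.9), both inhibitory adaptors, and RASGRP1 (+3.83), an activator of RAS.

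Relatives of LCK, ZAP70, LAT and CD247 formed a further list, which shares FYN with the pathway list. SYK, the relative of ZAP70, was little methylated in both lines (4.42% and 9.95%), unlike ZAP70. LAT2, the relative of LAT, was methylated in both (83.6% and 94.1%), unlike LAT. FCER1G, a signalling chain related to CD247, was at 21.2% in OCI-AML3 and 78.7% in OCI-AML5, and TYROBP at 46.2% and 70.4%. In the SRC family, FGR (37.8% against 79.7%), SRC (27.4% against 57.9%) and FRK (66.3% against 91.0%) were lower by over 20 points, BLK was at 61.6% against 81.3%, and LYN, FYN and YES1 were at most 12.9% in either line. In all, 11 of these 12 promoters were lower in OCI-AML3, 5 of them by over 20 points. Of 20 myeloid marker promoters 11 were lower, 7 by over 20 points, and 1, CEBPE (66.6% against 24.7%), was higher by over 20 points. FCER1G and TYROBP are on both the myeloid list and the list of relatives. Of 12 B-lineage markers 9 were lower, 2 by over 20 points, and 0 were higher by that size. Of all promoters 84.7% were lower, 8.61% by over 20 points, and 1.79% were higher by over 20 points. Whether these levels move with the T-cell genes was not tested.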

How the data were processed

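Genomic DNA of the 2 lines was bisulfite sequenced (paired reads of 100 bp). The authors deposited, for each CpG of hg19 (GRCh37), the counts of methylated and unmethylated calls with the strands added together. The submitters' processing notes name Bismark and Bowtie 0.12.8. Removal of duplicate reads was not stated, so calls may not be independent molecules. A C-to-T variant would be read as unmethylated and was not assessed.

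Genes were taken from GENCODE 44 mapped to GRCh37. CpG dinucleotides were used where both lines had over 5 reads, and promoters or bodies with at least 10 entered the background. Levels, Wilson intervals, Fisher's exact test with Benjamini-Hochberg adjustment (adjusted p under 0.05) and runs were computed across the genome with Python 3.11.15, numpy 2.4.6 and numba 0.67.0, after the steps were tested on simulated data. A median depth of 27 or 30 calls limits a single CpG to a floor of about 11.1% or 10.0% (3 calls).

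The members and lists were chosen with earlier results of these data known. All members are named. Of the pathway list, the 5 largest decreases and 5 largest increases are named, and all relatives may be, apart from withheld items, which are not reported here. The start of LCK 22869 bp inside the gene and the printed sequences were chosen after their values were seen. Alternatives were the read minimum, pooled calls, a depth ceiling, the start site, the window, the test and the run rule.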

Additional observations from a re-analysis of the deposited data

How the results depend on the processing

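Every alternative kept all 10 promoters lower except the 2 narrower windows, where CD7 turned to 0.255 (1000 bp on either side) and 2.14 points (2000 bp upstream only). The number of promoters lower by over 20 points was 2 in each of these windows, with CD2 (-20.2) in the first and CD3E (-21.1) in the second beside LAT, and 0 without LAT, an alternative chosen after seeing the data. The median promoter difference was -15.2 with pooled calls and -10.4 within 1000 bp. Pooling calls set the median body difference to -14.4 and the body difference of CD3E to 1.77. With at least 10 reads the CD3E body was at 0.652, leaving 9 bodies lower, and with the canonical start site the LAT body was at -19.3, leaving 2 bodies lower by over 20 points. Without LAT 18.3% of member CpG dinucleotides were lower. Runs of at least 5 CpG dinucleotides numbered 20 lower and 2 higher. By construction the longer run rule leaves fewer runs, and leaving out LAT removes the only promoter that passed 20 points in the main window. Both narrower windows leave out the part of CD7 from 1000 bp inside the gene, where OCI-AML3 was lower. The cause of the other shifts was not tested. Another 44 summary values, those counts of bodies included, stayed within 1.5 times the reported count or within its counting error. No paired analysis was possible because each line has 1 library. With 0 methylated calls at a single CpG, a level up to about the floor remains possible at this depth. Larger differences between the lines also went uncalled, as at -18 of CD2 (4 of 22 calls against 12 of 29).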

Other observations

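The genes next to 3 members had values of their own. SPNS1, a lipid transporter gene upstream of LAT, had a promoter at 22.7% in OCI-AML3 and 29.8% in OCI-AML5 and a body at 67.8% and 94.0%. In its last 1000 bp 34 of 35 CpG dinucleotides were below 20% in OCI-AML3 and 34 were above 80% in OCI-AML5 (1.71% and 93.5%), whereas the 5000 bp after its promoter window were at 89.2% and 94.5%. SECTM1 encodes a ligand of CD7. Its nearer end lies 3416 bp from the CD7 gene, and its start site lies 16466 bp from that of CD7. The SECTM1 promoter was at 15.3% in OCI-AML3 and 79.2% in OCI-AML5, while the sequence between CD7 and SECTM1 was at 90.4% and 90.1%. FAM167B, upstream of LCK, was at 67.1% and 80.6%. No replicate bears on these differences.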
